A study of Mus musculus with 4 samples.

Results

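Carbonic anhydrases were measured in mouse ventral midbrain, a region known for its dopamine neurons. The family was represented by 10 listed genes, Car2, Car3, Car4, Car5b, Car7, Car8, Car10, Car11, Car12 and Car14, out of 19938 genes that the array measured with a probe set of 1 gene symbol. A member was any listed gene with a probe set annotated to that symbol alone. Each of the 10 had exactly 1 such probe set, so no choice between probe sets was needed, and all 10 matched the RefSeq gene of the same symbol by Entrez identifier. The 6 other carbonic anhydrase genes on the array, Car1, Car5a, Car6, Car9, Car13 and Car15, are given separately.

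Tissue came from male mice of 10 to 15 weeks on the C57BL/6J background, either wild type (WT, 2 arrays) or with a knock-out of Rev-erba (RKO, 2 arrays), the gene Nr1d1 that encodes the repressing clock receptor REV-ERBα. Both groups had been entrained to 12 h of light per day and then kept in constant darkness for 2 days before they were killed on the following day. The labels call the replicates biological, but the number of mice behind an array, the removed part of Nr1d1 and the clock hour of collection are details not given in the sources used here. With RKO set against WT, the design shows how transcript levels stand when REV-ERBα is missing. Values are normalized intensities on a linear scale, and differences are on the log2 scale, RKO minus WT, with limma's moderated standard error (SE) and n = 2 arrays per group.

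Carbonic anhydrases are zinc enzymes that speed the reaction of carbon dioxide and water to bicarbonate and a proton, and back. In the brain they serve pH control around and inside cells, the bicarbonate supply of ion transport, fluid secretion and the clearance of carbon dioxide. The family divides by place of action: Car2, Car3 and Car7 are cytosolic, Car5b is mitochondrial, and Car4, Car12 and Car14 face the outside of the cell. Car8, Car10 and Car11 are related proteins that have lost the enzyme activity.

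Car14 stood far from WT and the rest of the family close to it. Car14 was 1.83-fold higher in RKO, the cytosolic Car7 and the mitochondrial Car5b differed from WT by -17.3% and -16.9%, and the other 7 members lay within 0.11 log2 units of WT. The members were listed with this comparison already known, so their differences are given as a description and no test of the family was made. Of the 9 members above the filter on dim probe sets (a mean at or above the 40th percentile of all probe sets), 1 was called higher and 0 lower at limma's adjusted p under 0.05, where 1.60% of the 13587 tested genes were called (0.640% higher and 0.964% lower). At an unadjusted p under 0.05 limma counted 1 member higher and 2 lower, beside 5.90% of tested genes higher and 6.90% lower. Because the comparison was in view when the genes were listed, nothing is read from these counts. The median difference of the 9 was -0.02, beside -0.01 over all tested genes.

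**Figure D1:**
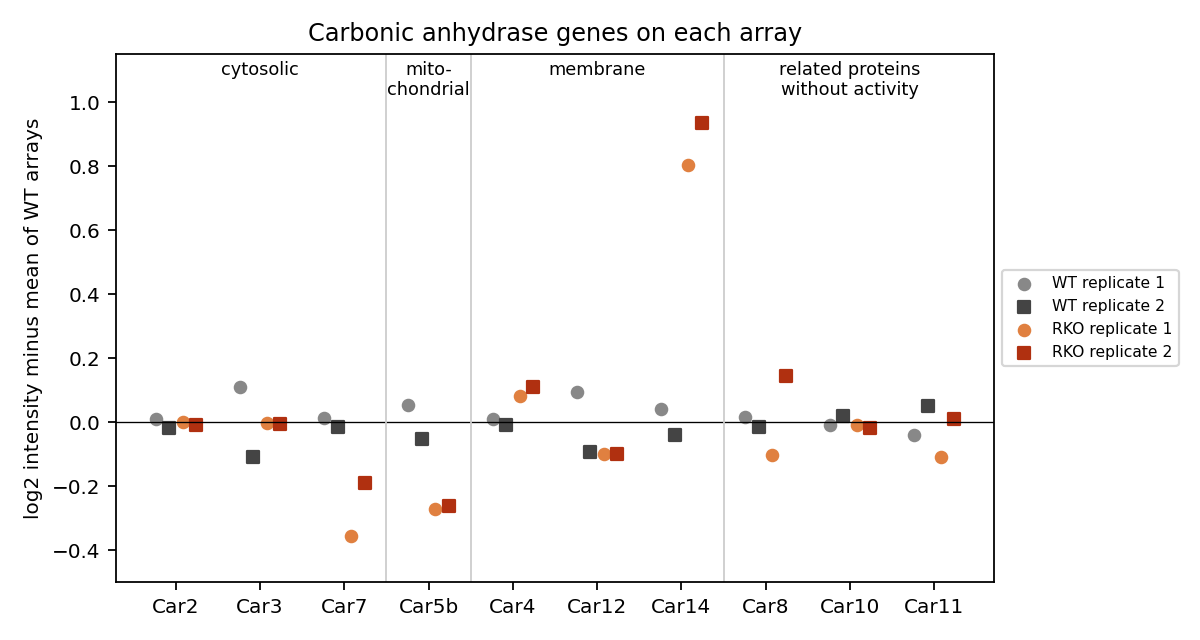
Log2 intensity of each carbonic anhydrase gene on each of the 4 arrays, as the difference from that gene's mean over the 2 WT arrays, with genes grouped by place of action. Both RKO arrays stood far above WT for Car14 and below both WT arrays for Car7 and Car5b, while the points of Car2 and Car10 lay almost on top of each other.

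Sequences before the start site are shown for the members that stood farthest from WT, since REV-ERBα acts on DNA near its target genes. RefSeq (GRCm38.p6) gave windows of 300 bases, from 250 before to 50 after a transcription start, for 7 of the 10 members, 11 windows in all. Car2, Car3 and Car8 had no entry. The windows were searched on both strands for the nuclear receptor half-site AGGTCA, the E-box CACGTG and the D-box TTANGTAA. Capitals mark a match, and the windows run 5′ to 3′ on the gene's own strand.
Car14, chr3:95904636-95904935, minus strand: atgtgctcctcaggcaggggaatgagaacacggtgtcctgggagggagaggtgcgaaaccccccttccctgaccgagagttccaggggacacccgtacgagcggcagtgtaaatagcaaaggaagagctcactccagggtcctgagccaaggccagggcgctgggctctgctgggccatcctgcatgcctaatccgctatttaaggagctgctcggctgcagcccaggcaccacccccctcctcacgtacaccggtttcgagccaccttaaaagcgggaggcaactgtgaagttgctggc
Car7, chr8:104540557-104540856, plus strand: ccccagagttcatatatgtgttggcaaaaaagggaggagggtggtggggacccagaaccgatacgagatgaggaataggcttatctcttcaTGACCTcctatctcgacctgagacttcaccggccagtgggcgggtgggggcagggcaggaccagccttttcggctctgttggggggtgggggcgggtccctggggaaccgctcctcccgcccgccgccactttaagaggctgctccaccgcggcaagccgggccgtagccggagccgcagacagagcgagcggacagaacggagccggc
Car5b, chrX:164027961-164028260, minus strand: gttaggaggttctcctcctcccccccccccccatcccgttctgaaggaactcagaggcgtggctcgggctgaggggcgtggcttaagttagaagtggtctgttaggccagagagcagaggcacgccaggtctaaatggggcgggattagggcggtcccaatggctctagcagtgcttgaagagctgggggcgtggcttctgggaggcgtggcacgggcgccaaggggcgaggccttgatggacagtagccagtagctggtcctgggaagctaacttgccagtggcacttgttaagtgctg
The Car7 window held TGACCT, the reverse complement of AGGTCA, at positions -159 to -154 from the start. It was the 1 match in all 11 windows, and it lay in 1 of the 3 start-site windows of Car7. AGGTCA occurred in 16.3% of the 32851 windows of this length in the table, CACGTG in 7.15% and TTANGTAA in 2.32%. The windows of Car14 and Car5b held none of these letters, and sites elsewhere in the genes were not searched. The Car14 window had 61.0% G and C with 13 CG pairs and that of Car5b 61.7% with 12, against medians of 52.7% and 7 over all windows.

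Among the members that face the outside of the cell, Car14 differed from WT and the others did not stand clearly apart. Car14 is a transmembrane enzyme with its active site outside the cell, found on neurons and glia. The WT arrays read 882 and 834, and the RKO arrays read 1497 and 1642. The lowest RKO array was thus well above the highest WT array, and the log2 difference was 0.87 (SE 0.0641, n = 2 per group). That difference was 6.49 times the larger of the 2 gaps between replicates, 0.13 in RKO. By size it ranked at place 4 among the rises of all tested genes. With 1 array left out in turn, the difference ran from 0.80 without RKO replicate 2 to 0.94 without RKO replicate 1, which describes the same values the gene was listed for.

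Car4, which is held on the outer membrane by a lipid anchor and lines brain capillaries, read 1663 and 1638 on the WT arrays against 1749 and 1782 on the RKO arrays. Both RKO arrays were above both WT arrays, but the log2 difference was 0.10 (SE 0.0550, 95% interval -0.02 to 0.22) and was not called. Car12, a transmembrane enzyme of epithelia, read 231 and 203 on the WT arrays against 202.5 and 202.4 on the RKO arrays. WT replicate 1 alone was high and the other 3 arrays were nearly equal, giving a difference of -0.10 (SE 0.0676, 95% interval -0.25 to 0.05). Without WT replicate 1 the Car12 difference was -0.0069. Car12 was also the dimmest member above the filter, which lay at an intensity of 167.

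Of the cytosolic members Car7 lay below WT, while Car2 and Car3 lay close to it. Car7, an enzyme of neurons whose bicarbonate can leave through GABA-A receptor channels, read 703.5 and 689.9 on the WT arrays against 545 and 610 on the RKO arrays. Both RKO arrays were below both WT arrays, with a log2 difference of -0.27 (SE 0.0652). The RKO arrays themselves differed by 0.16, and the value was -0.36 without RKO replicate 2 and -0.19 without RKO replicate 1. It was not called in the setting used here, and alternatives that called it included the 60th percentile filter and an intensity trend in the variance model.

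Car2 is the main cytosolic enzyme of the brain, where oligodendrocytes and the choroid plexus carry much of it. It read 5041 and 4954.5 in WT against 5000.3 and 4968.5 in RKO. The groups overlapped and all 4 arrays lay within 0.0249 log2 units of each other, the narrowest range of any member. The difference was -0.0038 (SE 0.0548), and its 95% interval ran from -0.12 to 0.12. Car3, a cytosolic enzyme of low activity that is abundant in skeletal muscle and fat, was the 1 member below the filter and was not tested. It read 141 and 121 in WT against 131 and 130.4 in RKO, so the RKO arrays lay between the WT arrays.

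Car5b, the mitochondrial member, read 325 and 302 in WT against 259.6 and 261.3 in RKO. The RKO arrays nearly coincided and both lay below WT, with a log2 difference of -0.27 (SE 0.0593). It was not called in the setting used here, nor with no filter, median centring or quantile normalization. Some alternatives called it, among them a pseudocount of 16, the mean of all probe sets of a gene and an intensity trend. With its single probe set, the mean of probe sets left its difference unchanged. The difference was -0.21 without WT replicate 1 and -0.32 without WT replicate 2, and -0.26 and -0.27 without RKO replicates 1 and 2. The size of the Car7 and Car5b differences was close to the smallest difference called in any tested gene, 0.26. Differences at least as large as that of Car5b, in either direction, were measured in 2.16% of tested genes.

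**Figure D2:**
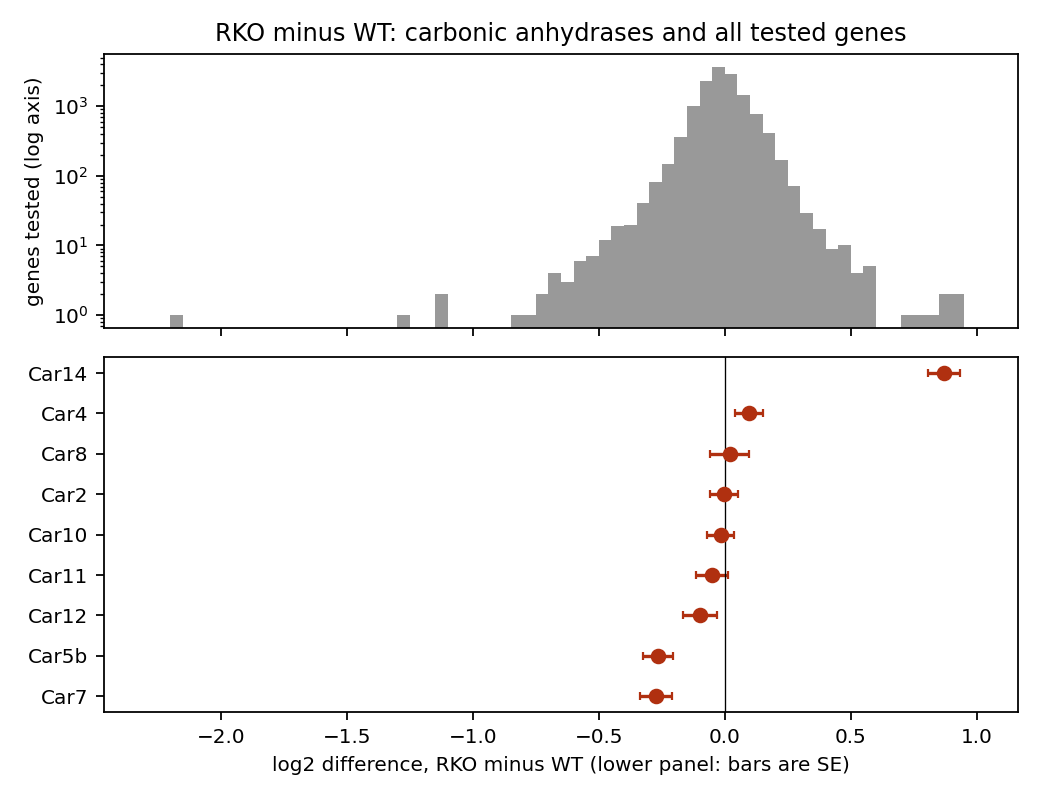
The upper panel counts all 13587 tested genes by log2 difference, RKO minus WT, on a logarithmic count axis, and the lower panel gives the 9 tested carbonic anhydrases on the same axis with bars of 1 SE. Car14 at 0.87 lay in the thin right tail, Car7 and Car5b at -0.27 lay on the left shoulder, and the other 6 lay in the central peak.

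The 3 members without enzyme activity did not stand apart from WT beyond their spread. Car8 lacks a residue that holds the zinc, binds the inositol trisphosphate receptor and is best known from cerebellar Purkinje cells. It read 396.5 and 388 in WT against 365 and 433 in RKO, so that the RKO arrays lay on both sides of WT. Its difference of 0.02 (SE 0.0767, 95% interval -0.15 to 0.19) covered a gap of 0.25 between the RKO arrays, the widest replicate gap of any member. Left out in turn, the RKO arrays moved it to 0.14 or -0.105.

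Car10, a secreted protein that binds neurexins at synapses, read 2291.5 and 2332 in WT against 2292 and 2277 in RKO. All 4 arrays lay within 0.0343 log2 units, with a difference of -0.02 (SE 0.0548, 95% interval -0.14 to 0.10). Car11, its close relative, read 2169 and 2297 in WT against 2067.5 and 2247 in RKO. Its arrays overlapped, and the difference was -0.05 (SE 0.0630, 95% interval -0.19 to 0.09). The sign of Car2 and of Car10 turned when each array was centred on its median or when arrays were quantile normalized.

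Over all 10 members, both RKO arrays were above both WT arrays for 2 (Car14 and Car4) and below for 3 (Car7, Car5b and Car12), and the groups overlapped for 5. Such a separation held for 41.8% of tested genes (17.2% with RKO above and 24.6% with RKO below) and for 40.4% of all genes without the filter, set beside 5 of the 9 tested members. In Car14, Car7, Car5b and Car4 the difference exceeded both replicate gaps, and it was 1.67 times the larger gap in Car7, 2.48 times in Car5b and 3.66 times in Car4.

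**Figure D3:**
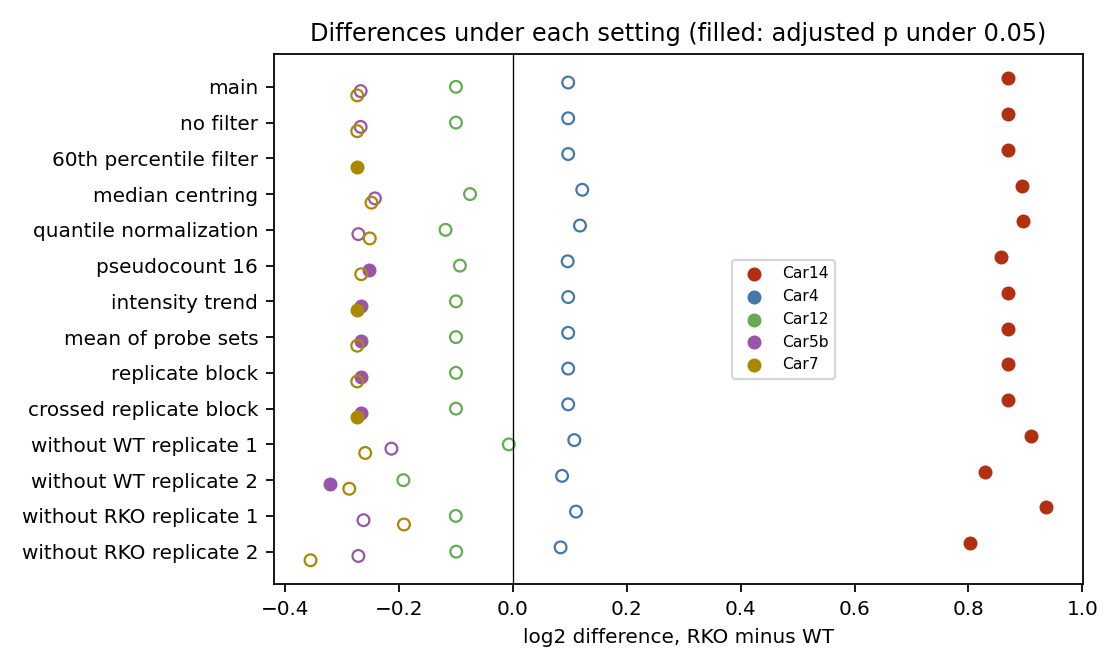
Log2 difference, RKO minus WT, of the 5 members whose groups did not overlap, under the setting used here (main) and each alternative in processing or arrays, with filled points where limma's adjusted p was under 0.05. Car14 stayed between 0.80 and 0.94 and was filled throughout, Car7 and Car5b stayed below 0 and were filled under some settings, and Car4 and Car12 were never filled. Points of Car5b and Car12 are missing under the 60th percentile filter, which left these genes out.

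The 6 carbonic anhydrase genes outside the list gave low signals. Car13, a cytosolic enzyme, read 210.0 and 194 in WT against 196 and 207 in RKO (difference -0.0028, SE 0.0622), and Car15, a membrane-anchored enzyme, read 209 and 235 in WT against 218 in both RKO arrays (-0.03, SE 0.0656). Neither passed in limma (adjusted p = 0.993 and 0.934, and 0 of 2 at an unadjusted p under 0.05). Car1, the enzyme of red cells, Car5a of liver mitochondria, the secreted Car6 and the hypoxia-induced Car9 lay below the filter and were not tested. Car1 read 115 and 121 in WT against 150.0 and 138 in RKO, an unfiltered difference of 0.28 at intensities below 167, and Car6 stood at 0.20, Car5a at 0.02 and Car9 at -0.04.

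Genes that move the products of carbonic anhydrases across membranes mostly lay near WT. Of 50 listed acid-base genes 31 were tested, the 2 other carbonic anhydrases included, and 1 rose, 2 fell and 28 did not pass, which is 9.68% called beside 1.60% over all genes. At an unadjusted p under 0.05 limma counted 7 of the 31, beside 12.8% of all tested genes. The median difference of the 31 was -0.0099. Limma called none of the 8 tested bicarbonate transporters (0 at an unadjusted p under 0.05), and Slc4a5, a sodium bicarbonate cotransporter of the choroid plexus, lay farthest out at 0.14. Among the 6 lactate and proton carriers and their partners limma called 0 (1 at an unadjusted p under 0.05), the largest value being that of Slc16a8 at 0.14. Among 6 tested genes listed with the sodium-proton exchangers, Slc9a3r1 fell (-0.43, SE 0.0717, limma adjusted p = 0.0125), which encodes a scaffold protein and not an exchanger, while the 5 exchangers did not pass. At an unadjusted p under 0.05 limma counted 3 of these 6 genes, all lower, and their median was -0.11.

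The genes listed with the proton sensors, by family and not by a measured response to protons, held the other 2 called genes. Gpr4, a proton-sensing receptor of endothelium, fell (-0.37, SE 0.0581, limma adjusted p = 0.00833), and Asic4, a subunit of the acid-sensing ion channel family, rose (0.33, SE 0.0605, limma adjusted p = 0.0188), with 3 of 5 not passing and 3 of 5 at an unadjusted p under 0.05. Of the genes listed with the inactive members, the neurexin genes Nrxn2 and Nrxn3 and the genes Ptprg and Ptprz1 were tested. Limma called 0 of them (0 at an unadjusted p under 0.05), with Nrxn3 farthest out at 0.07. The calls outside Car14 depended on the arrays: without RKO replicate 1 all 3 acid-base calls were lost, without RKO replicate 2 Slc9a3r1 and Asic4 were lost, without WT replicate 2 Asic4 was lost, and with no filter all 3 were lost, as was Slc9a3r1 with median centring and with quantile normalization.

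**Figure D4:**
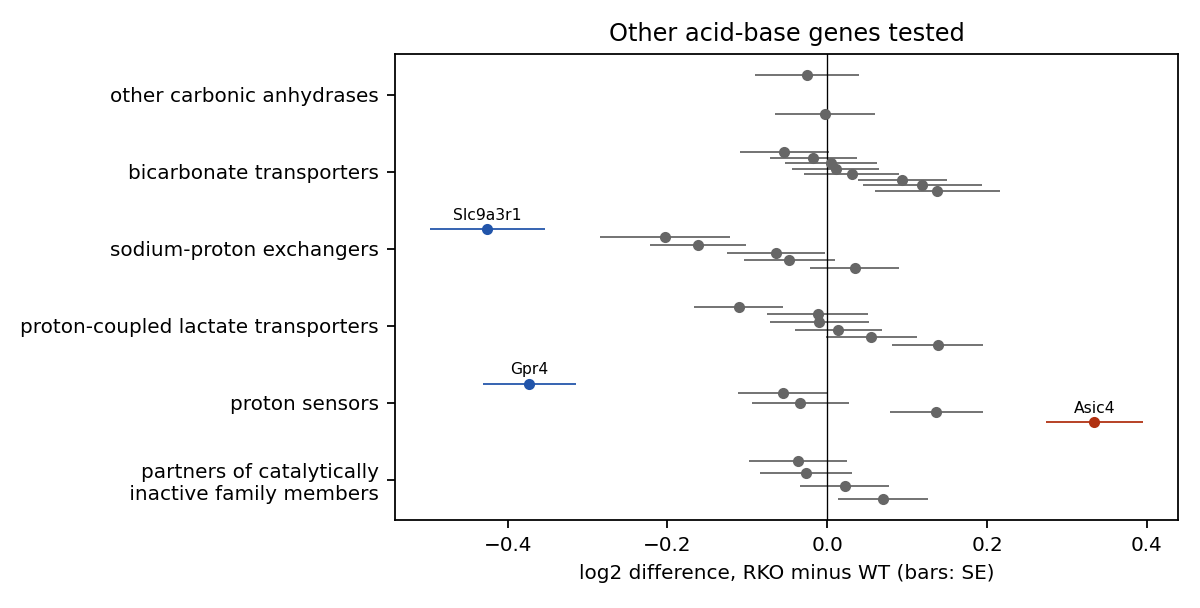
Log2 differences, RKO minus WT, of the 31 tested acid-base genes in 6 lists, with bars of 1 SE, blue for genes called lower, red for higher and grey for those not called. Slc9a3r1 at -0.43, Gpr4 at -0.37 and Asic4 at 0.33 stood outside the cloud of values near 0.

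Along the chromosomes, some members lay near genes of the clock. The 5 nearest tested genes on either side of each member, in RefSeq gene order, came to 90 genes. Of these 2 rose, 0 fell in limma and 88 did not pass, 2.22% beside 1.60% over all genes. Limma's unadjusted p was under 0.05 for 12 of the 90, 6 of them lower, beside 12.8% of all tested genes (6.90% lower). Both that rose are genes of the clock: Ciart, a repressor of CLOCK and BMAL1, lies with 2 genes between it and Car14, and Dbp, a PAR-bZIP activator of D-boxes, lies directly next to Car11. Hlf, a PAR-bZIP gene like Dbp, was among the 5 tested genes before Car10 and stayed near WT (-0.0036, SE 0.0566, limma adjusted p = 0.989). Ciart read 1109 and 951 in WT against 1388 and 1318 in RKO (0.40, SE 0.0744, limma adjusted p = 0.0239). These values are from the brightest of its 2 probe sets, and the mean of its probe sets gave 0.35. Dbp read 1492 and 1403 in WT against 1907 and 1930 in RKO (0.41, SE 0.0578, limma adjusted p = 0.00440).

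The tested genes between and around them were not called. Aph1a, a γ-secretase subunit that overlaps Car14 in the RefSeq annotation, stood at 0.07 (SE 0.0633, limma adjusted p = 0.773, brightest of 2 probe sets), and BC028528, between Aph1a and Ciart, at 0.0035. On the other side of Car14 the nearest tested gene, Anp32e, stood at -0.07. Next to Dbp, Car11 itself was at -0.05 and Sphk2, the next tested gene, at -0.08. These flanking genes were picked out after their values were seen. Both neighbour calls were lost without RKO replicate 1, without RKO replicate 2 and with no filter, and that of Ciart also without WT replicate 2 and with median centring.

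**Figure D5:**
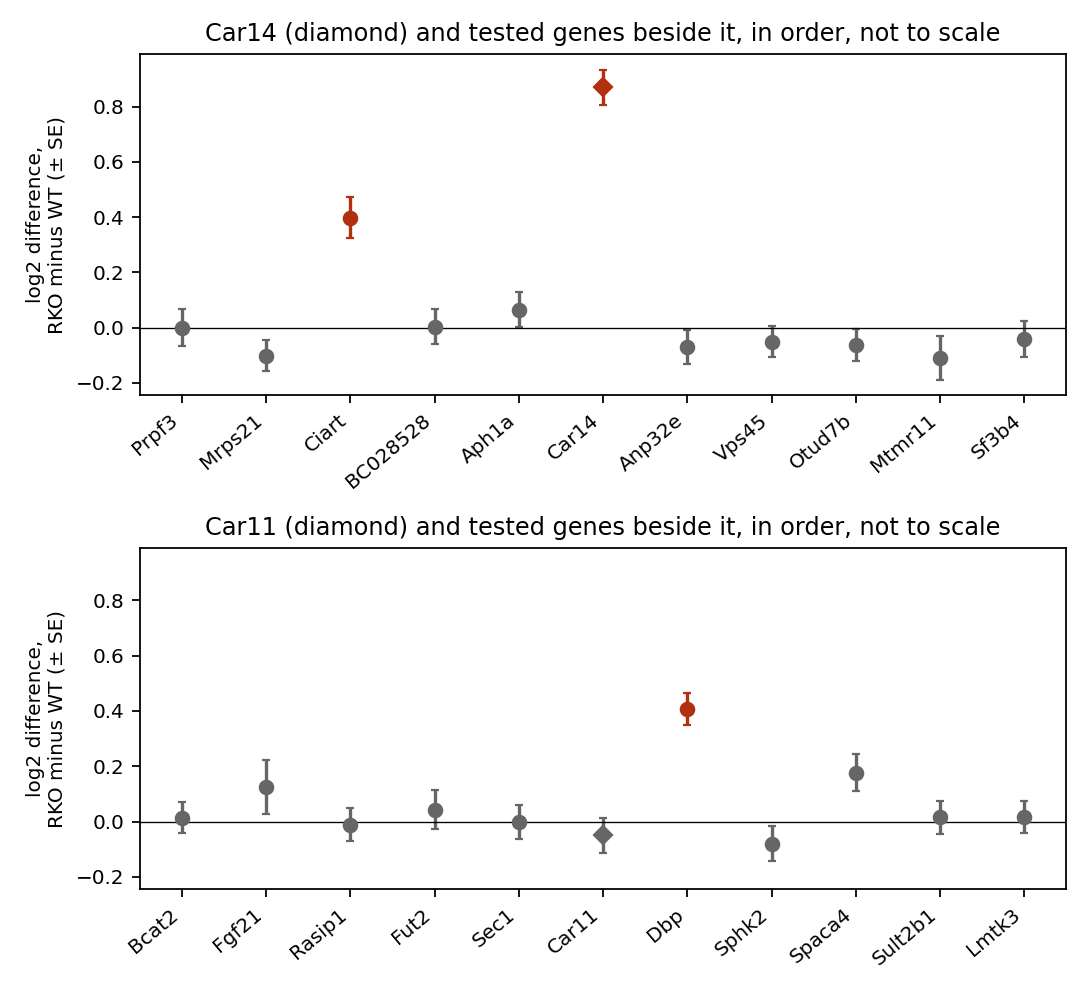
Log2 differences, RKO minus WT, with bars of 1 SE, for Car14 and Car11 (diamonds) and the 5 nearest tested genes on either side in chromosome order, with called genes in red. Car14 and Ciart rose, with the tested genes around them at -0.11 to 0.07, and Dbp rose next to Car11 at -0.05.

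The tested genes whose pattern over the 4 arrays was most like that of Car14 were Spon2, Ednrb, Etnppl, Fabp7 and Th, at distances of 0.0752, 0.0940, 0.115, 0.179 and 0.193. The distance is Euclidean, between log2 values centred on each gene's own mean over the 4 arrays, and it mainly finds genes with a rise of the same size. Spon2, the closest, read 167.5 and 157.7 in WT against 282.2 and 292.5 in RKO. Its WT mean (log2 7.344) lay below the filter (log2 7.382), so Spon2 was tested only through its high RKO arrays.

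Markers of cells that carry carbonic anhydrases were read beside these values, and in whole tissue fewer cells of a type and less RNA per cell cannot be told apart. Oligodendrocyte markers, of cells rich in Car2, lay below 0 in 9 of 9 tested genes (10 listed) with a median of -0.11 and an intensity summed over the listed genes on the array of 35835 to 36989 in WT and 33833 to 34058 in RKO, where Opalin alone fell. Choroid plexus markers summed to 9416 to 9630 in WT and 9934 to 10040 in RKO, with Kcnj13 lower, 7 of 8 tested above 0 and a median of 0.06, and Prlr of that list was not analysed here. Astrocyte markers summed to 21097 to 21156 in WT against 21485 to 21807 in RKO, with Gfap and Aldh1l1 lower, Kcnj10 higher and a median of -0.06 over 9. Endothelial markers, beside Car4 and Gpr4, summed to 9728 to 9803 in WT against 9576 to 9972 in RKO, and limma called 0 of the 8 (2 at an unadjusted p under 0.05). Of 11 tested leptomeningeal markers Dcn, Ogn, Slc6a13, Slc22a6, Slc13a4, Islr and Aebp1 fell and 4 did not pass, with a median of -0.28, a summed intensity of 5919 to 6082 in WT and 4685 to 4747 in RKO and Lum below the filter. Limma's unadjusted p was under 0.05 for 2 of 9 oligodendrocyte markers (2 lower) and 2 of 8 choroid plexus markers (1 lower). It was so for 6 of 9 astrocyte markers (3 lower) and 9 of 11 leptomeningeal markers (8 lower), beside 12.8% of all tested genes.

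Muscle and fat markers, cells known for Car3, lay above 0 in 5 of 5 tested with a median of 0.14 and sums of 1453 to 1485 in WT and 1519 to 1697 in RKO, with Myh4, Adipoq and Fabp4 below the filter and 0 passing in limma (2 at an unadjusted p under 0.05). General neuron markers summed to 38907 to 39228 in WT against 38824 to 39081 in RKO with a median of -0.0076, and limma called 0 of the 7 (0 at an unadjusted p under 0.05). Of the markers listed for cerebellum, beside Car8, Cbln1, Zic1, Pvalb and Calb1 were tested. Their median was -0.09, with 3 below 0 and 1 above, and limma called 0 (2 at an unadjusted p under 0.05). Pcp2, Gabra6 and Cbln3 lay below the filter and stood, untested, at 0.16, 0.06 and 0.06. The negative median thus rests on the 4 brighter genes alone. Microglia markers had a median of -0.07 over 5, and the 1 tested erythroid marker, Alas2, stood at 0.10, with none of either list passing in limma (0 at an unadjusted p under 0.05). The part of any of these cell types in the difference of Car14, Car7 or Car5b was not tested.

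As checks of the labels, Nr1d1 read 2897 and 3099 in WT against 1259 and 1229.7 in RKO, a log2 difference of -1.27, and its single probe set checks the knock-out only as far as it lies in the removed part. The defining genes of dopamine neurons were all above the filter, and 4 of the 8, Th, Slc18a2, Ddc and Slc6a3, were called higher in RKO, beside 0.640% of all tested genes. The median of the 8 was 0.30, and Aldh1a1 alone lay below 0, at -0.10. Limma's unadjusted p was under 0.05 for 7 of the 8, with 0 of them lower, beside 12.8% of all tested genes. The median intensity of the tested genes was 558.7, 558.6 and 558.6 on 3 arrays and 539.8 on RKO replicate 1. Over all probe sets the median was 236.8 and 236.3 in WT, 240.1 on RKO replicate 1 and 235.7 on RKO replicate 2. RKO replicate 1 was thus lowest for the tested genes and highest over all probe sets, which is not a plain offset.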

How the data were processed

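The authors deposited normalized intensities, not logged, with 1 value for each of 35556 probe sets and each array (Affymetrix, mouse). Per the submitters' processing notes GCOS and RMA were used, with no version or setting named. RMA as usually run equalises the arrays' distributions and so hides any change shared by most genes. Intensities were taken to log2 with no pseudocount. Of the probe sets 21789 carried 1 gene symbol, 1621 several and 12146 none here, and only the first kind was used. Each of 19938 genes was represented by its brightest probe set, and a mean at or above the 40th percentile of all probe sets (intensity 167) was required, which 13587 genes met. The groups were compared with limma 3.58.1 (lmFit, eBayes; R 4.3.3), two-sided, with Benjamini-Hochberg adjustment over these genes and calls at 0.05. The error rests on 2 residual and 8.73 prior degrees of freedom, and the number of arrays limits precision. The fit was also run on simulated data with independent errors and with changes larger than those of Car7 and Car5b. Its outcome is not given here, and nothing about the calls is read from it.

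Members, gene lists and tests were chosen with earlier results of these data known. Named are all members, called genes of each list, the farthest gene of each acid-base list, called neighbours, and the 5 genes most like Car14. RefSeq tables of GRCm38.p6 gave names, gene order and start-site windows. Gene coordinates were not set against the array because its annotation's build was not given in the sources used here. Both groups share replicate numbers, but same-numbered arrays deviated slightly in opposite directions (Pearson's r = -0.114 across 13587 genes, which are not independent), so they were not taken as pairs. P-values set a difference against the spread between these arrays, which limma draws mostly from all tested genes together. Alternatives were no filter, a 60th percentile filter, median centring, quantile normalization, a pseudocount of 16, an intensity trend, the mean of a gene's probe sets, a replicate block, a crossed block added after the data were seen, and each array left out.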

Additional observations from a re-analysis of the deposited data

How the results depend on the processing

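Car14 was called higher under all 13 alternatives, and no member other than Car14 was called higher in any; as it was listed for this difference, these calls are no support for it. With 1 array left out, the lone array of a group is assumed to vary like the pair of the other group. Members called lower, 0 in the setting used here, numbered 1 with the 60th percentile filter (Car7), 1 with a pseudocount of 16, 1 with the mean of probe sets and 1 with the replicate block (Car5b each time), 2 with an intensity trend and 2 with the crossed block; with 1 array left out there were 0 to 1. Genes called higher, 87, numbered 8 with no filter, 50 with median centring and 190 with an intensity trend, and 32 (without RKO replicate 1) to 142 (without WT replicate 2) with 1 array left out; genes called lower, 131, numbered 23, 56, 309 and 41 to 151 in the same order and for the same arrays, and without RKO replicate 2 there were 34 higher and 65 lower. The replicate block gave 105 higher and 154 lower. A crossed pairing, tried because the replicate deviations ran in opposite directions, gave 334 higher and 362 lower, with 5 neighbours higher and 1 lower; it was chosen after the data were seen. Acid-base genes called higher, 1, fell to 0 with no filter and to 0 to 1 with 1 array left out. Those called lower, 2, became 0 with no filter, 1 with median centring, 1 with quantile normalization and 0 to 3 with 1 array left out. Neighbours called higher, 2, became 0 with no filter, 1 with median centring and 0 to 2 with 1 array left out, and those called lower, 0, became 1 with the 60th percentile filter and 2 with an intensity trend. The cause of these shifts was not tested. Dim probe sets, such as those of Car3 and Car12, lie near the filter, and small differences there are the least certain.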
